A study of Homo sapiens with 6 samples.

Results

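A pair of small interfering RNAs (siRNAs) directed at the same message, siOGT1 and siOGT2, were compared with each other in KGN cells, an established human line from an ovarian granulosa cell tumour. The study knocked down OGT, the gene of O-GlcNAc transferase, and used 2 such siRNAs beside a negative control siRNA, siNC. All 3 groups were KGN cells labelled wild type, were transfected with a Lipofectamine reagent and were harvested 48 hours later, and each holds 2 RNA sequencing libraries. The comparison rests on 4 of the 6 libraries, siOGT1 replicates 1 and 2 against siOGT2 replicates 1 and 2. It covers 10547 of the 20036 genes in the deposited table, those with a mean FPKM (fragments scaled to gene length and library total) of at least 1 over the 6 libraries. ZNF324B, with a mean of 1.0022 FPKM, was just inside this limit, and MPP2, with 0.9992 FPKM, was just outside it. The siNC libraries served as the reference level of each gene and entered the estimate of spread.

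O-GlcNAc transferase attaches a single N-acetylglucosamine sugar to serines and threonines of proteins in the nucleus and cytosol, and O-GlcNAcase, the product of OGA, removes it. An siRNA is loaded into an Argonaute protein and directs cleavage of the message that pairs with it along most of its length. Its 5′ end, the seed, can also pair with short matches in the 3′ untranslated regions (UTRs) of other messages and lower them, in the way microRNAs do. Comparing siRNAs that share a target shows which messages differ between the groups that received them. The part of the reagent cannot be told apart here from that of unequal knockdown or of the cultures.

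The libraries held between 16756649 reads (siOGT2 replicate 2) and 21416489 reads (siOGT1 replicate 2), recovered from the FPKM values, and the median tested gene had 765 to 975 reads per library. No source used here says whether the 2 libraries of a group came from separate cultures, so the p-values measure the spread between these libraries, which may be technical. Of the granulosa markers, FOXL2 was listed at 5.32 to 6.25 FPKM, NR5A1 at 18.2 to 20.5 FPKM and GATA4 at 2.16 to 2.81 FPKM, while FSHR stood at 0 throughout and AMHR2, INHA, WT1 and CYP19A1 stayed under 1 FPKM in each. None of the 12 leukocyte markers and none of the 10 oocyte markers passed the limit for testing. Of the epithelial markers 4 of 11 passed it, KRT7 at 23.2 to 28.8 FPKM among them, as did 5 of 10 markers of theca and stroma, whose FPKM summed to 292 to 333 per library, and the endothelial marker TEK. PDGFRB and LUM of the stromal list were called lower in siOGT1 than in siOGT2, at -0.38 and -0.24. THY1 (-0.09) and ACTA2 (0.05) of that list were not called. Of the epithelial list MUC1 was called higher, at 0.27, while KRT7, KRT18 and KRT8 stood at -0.15, -0.14 and -0.11 and were not called. The part of other cell types or states in the results was not tested. In bulk RNA, fewer cells of a kind and less of a message per cell cannot be told apart.

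The target itself was lowered to a similar level by both siRNAs. OGT (chromosome X) was listed at 22.4 and 23.4 FPKM in siNC, at 13.8 and 12.9 in siOGT1 and at 14.3 and 14.7 in siOGT2. The siOGT1 mean was 58.3% of the siNC mean and the siOGT2 mean was 63.2% of it. Both siOGT1 libraries lay below both siOGT2 libraries, and all 4 lay far below siNC. The log2 fold change of siOGT1 minus siOGT2, computed on log2(FPKM + 1), was -0.11 with a standard error (SE) of 0.04, and it did not pass (limma, Benjamini-Hochberg adjusted p = 0.123). Its 95% interval, not adjusted for the number of genes, ran from -0.21 to -0.01. When the test was run on recovered reads instead (limma voom), the difference did pass, at -0.12 with an adjusted p of 0.0342.

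OGA was listed at 64.1 and 64.8 FPKM in siNC, 60.9 and 59.8 in siOGT1 and 57.7 and 56.7 in siOGT2. The siOGT1 libraries lay between the other groups, and the difference between the siRNAs, 0.08 (SE 0.03), did not pass (limma adjusted p = 0.112). Among the 15 tested genes of O-GlcNAc cycling and of the hexosamine pathway, which makes its sugar donor, 4 were higher in siOGT1 (26.7%) and 1 was lower (6.67%), against 8.35% and 8.24% of all genes tested. The 4 became 1 without siOGT2 replicate 1, 2 without siOGT1 replicate 2, 0 without siOGT2 replicate 2 and 1 with no filter on low values. GFPT1, the rate-limiting enzyme of that pathway, was 0.20 higher on the log2 scale, and GNPDA1, UAP1L1 and HK2 were 0.14, 0.14 and 0.13 higher. PGM3, a mutase in the middle of the pathway, was listed at 2.96 and 2.86 FPKM in siOGT1 against 4.01 and 3.93 in siOGT2 and 3.61 and 3.68 in siNC. The log2 fold change was -0.35 (SE 0.05, limma adjusted p = 0.00235), with no overlap between the groups. The 3′ UTR of PGM3 held the 7-base sequence GCTCTTA, described below, 2 times.

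**Figure D1:**
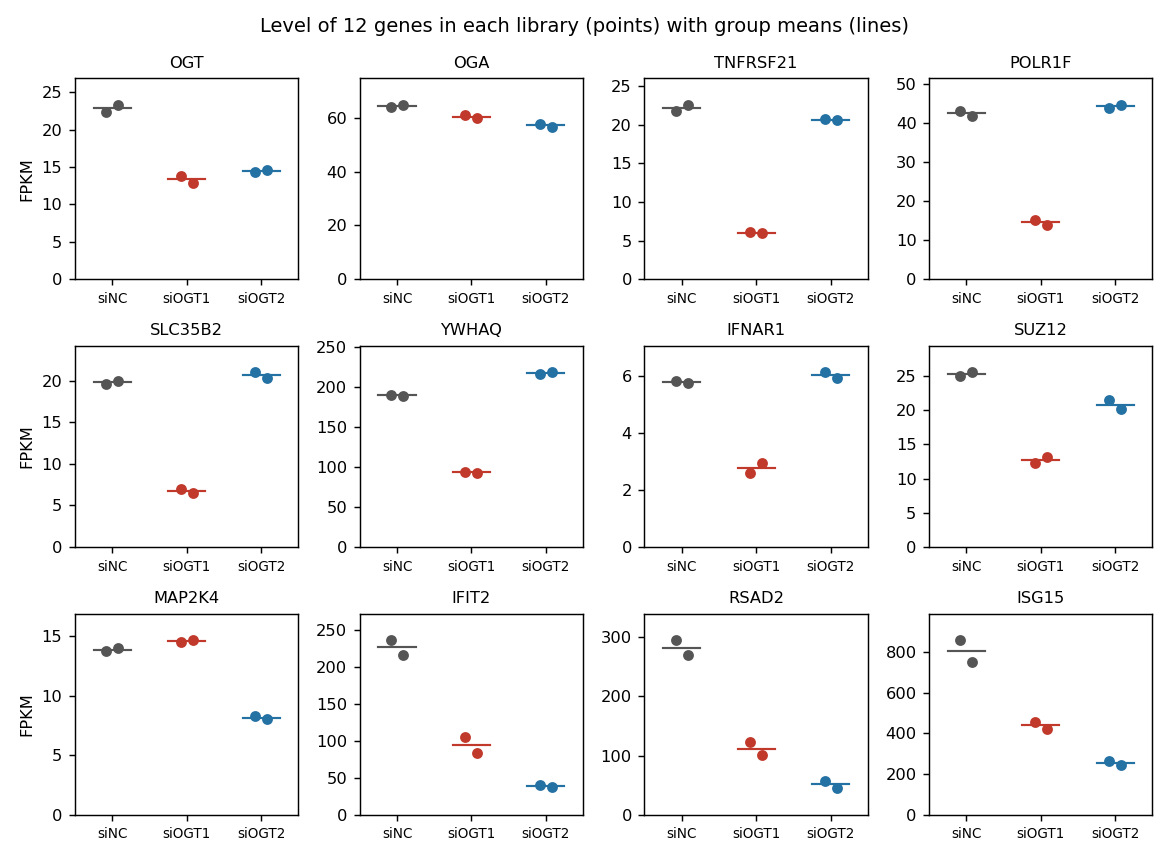
Level of 12 genes in each library, in FPKM on linear axes that start at 0; points are libraries and lines are group means. OGT is low with both siRNAs, TNFRSF21 to SUZ12 are lowest in siOGT1, MAP2K4 is low in siOGT2 only, and IFIT2, RSAD2 and ISG15 step down from siNC through siOGT1 to siOGT2.

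Beyond the target, many messages differed between the siRNAs. Of the 10547 genes, 1750 (16.6%) differed between siOGT1 and siOGT2 at an adjusted p under 0.05 (limma with Benjamini-Hochberg adjustment). The calls were split evenly, with 881 genes (8.35%) higher in siOGT1 and 869 (8.24%) lower. In all 1750 the siOGT1 libraries lay on one side of both siOGT2 libraries. Over all tested genes that held for 27.7% with siOGT1 above and 30.9% with siOGT1 below. Most differences were small: the median size of a called log2 fold change was 0.23, and 188 genes were at least 1.25-fold higher and 211 at least 1.25-fold lower. At 1.5-fold the counts were 37 and 48, and at 2-fold they were 2 and 8. These folds were counted on log2(FPKM + 1), so more genes reach them in plain FPKM. For example, mean FPKM was 2.03-fold higher in siOGT1 for OASL and 2.33-fold for RTP4, and 2.21-fold higher in siOGT2 for SLC35D1. None of the 3 is in the counts at 2-fold. Fewer calls were made without siOGT2 replicate 2 (816) or siOGT2 replicate 1 (1068), and fewer were called lower without siOGT1 replicate 1 (538) and higher without siOGT1 replicate 2 (570). With libraries scaled to equal sums, 58% of the calls were higher in siOGT1, against 50.3% as deposited, and with a trimmed mean of log ratios the share was 57.4%.

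For scale, the same model called 1857 genes (17.6%) in siOGT1 against siNC, 1003 higher (9.51%) and 854 lower (8.1%). It called 3740 (35.5%) in siOGT2 against siNC, 2329 higher (22.1%) and 1411 lower (13.4%). These comparisons share the siNC libraries. The siNC level lay at different places for the 2 directions. Among the 881 genes higher in siOGT1, the siNC mean was above both siRNA means for 502 (57%), between them for 343 (38.9%) and below both for 36 (4.09%). Among the 869 lower in siOGT1, it was above both for 129 (14.8%), between for 421 (48.4%) and below both for 319 (36.7%).

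**Figure D2:**
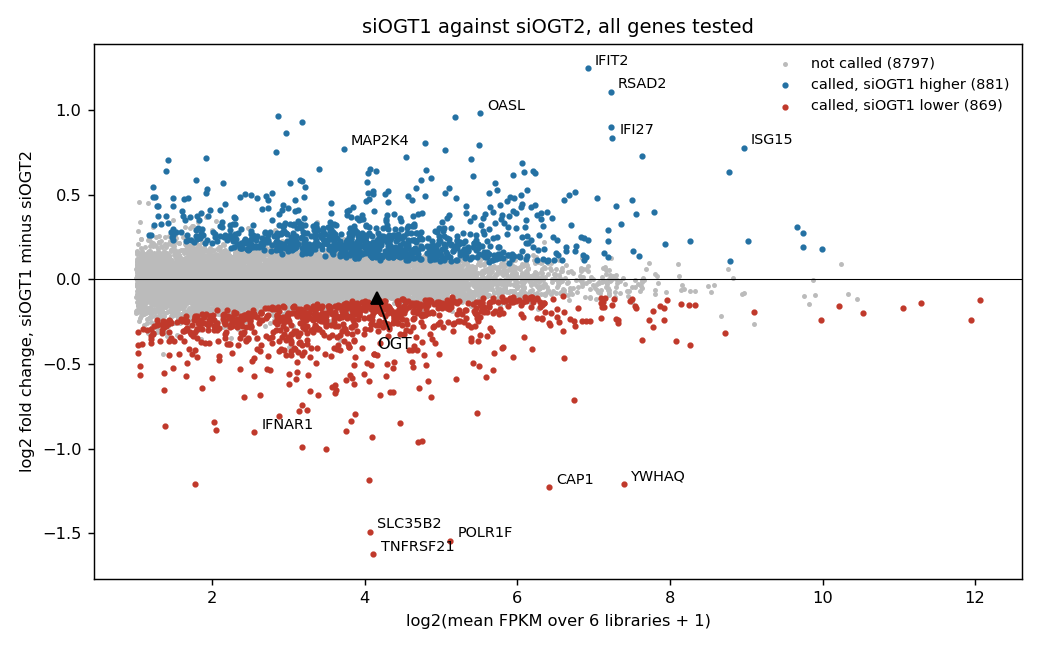
Log2 fold change of siOGT1 minus siOGT2 for each of the 10547 tested genes against log2(mean FPKM over 6 libraries + 1); blue marks the 881 genes called higher in siOGT1, red the 869 called lower and grey the rest. OGT sits close to 0 among genes not called, while the largest differences are TNFRSF21, POLR1F and SLC35B2 on the lower side and IFIT2 and RSAD2 on the higher side.

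The largest differences were for the most part messages low in siOGT1. TNFRSF21, a death receptor of the tumour necrosis factor receptor family, was listed at 21.7 and 22.6 FPKM in siNC, 6.059 and 6.001 in siOGT1 and 20.7 and 20.6 in siOGT2. Its mean FPKM was 3.43-fold higher in siOGT2 than in siOGT1, and the log2 fold change was -1.62 (SE 0.04, limma adjusted p = 1.86e-08). The difference of siOGT2 from siNC did not pass. POLR1F, a subunit of RNA polymerase I, was listed at 43.1 and 41.9 FPKM in siNC, 15.1 and 14.0 in siOGT1 and 43.8 and 44.7 in siOGT2. Its siOGT1 libraries lay far below the other 4, which were close together, and the log2 fold change was -1.54 (SE 0.04, limma adjusted p = 4.17e-08).

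SLC35B2, a Golgi transporter of the sulfate donor PAPS, was listed at 19.68 and 20.01 FPKM in siNC, 6.97 and 6.46 in siOGT1 and 21.02 and 20.31 in siOGT2. CAP1, an actin-binding protein, was listed at 101.0 and 100.2 FPKM in siNC, 45.0 and 45.9 in siOGT1 and 107.0 and 108.6 in siOGT2. YWHAQ, the 14-3-3 theta adaptor protein, was listed at 190.3 and 189.4 FPKM in siNC, 93.8 and 93.0 in siOGT1 and 216.2 and 218.6 in siOGT2. In all 3 the siOGT1 libraries stood below the siNC and siOGT2 libraries with no overlap, and the log2 fold changes were -1.49, -1.23 and -1.21. The rest of the 15 largest on this side were LCE3A, CNOT11 (a subunit of the deadenylase complex CCR4-NOT), TIMM10B, SLC35D1, GTPBP4, VPS4B (an ATPase of membrane scission), OSTM1, IFNAR1, ELK3 and ENTREP3, down to -0.89. Across the 15, adjusted p ran from 1.86e-08 to 0.000181, and 14 were also lower in siOGT1 than in siNC by the test. The exception was LCE3A, listed at 1.65 and 1.47 FPKM in siNC, 1.61 and 1.04 in siOGT1 and 4.70 and 3.98 in siOGT2: here siOGT2 was the group apart. In siOGT2 against siNC, 5 of the 15 passed. VPS4B was lower there (-0.14), and LCE3A (1.06), YWHAQ (0.19), TIMM10B (0.17) and CAP1 (0.10) were higher.

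IFNAR1, a chain of the receptor for type I interferons, is 1 of the 15. It was listed at 5.82 and 5.76 FPKM in siNC, 2.60 and 2.94 in siOGT1 and 6.12 and 5.94 in siOGT2, a log2 fold change of -0.90 (SE 0.06, limma adjusted p = 1.94e-05). Only siOGT1 was low, with no overlap with the other groups. Its part in the levels of interferon-stimulated genes was not tested.

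A 7-base sequence, GCTCTTA, was shared by the 3′ UTRs of nearly all of these messages. It was found by ranking 15482 heptamers, each present in the 3′ UTR of at least 50 of the 10419 genes with a searchable 3′ UTR, by the difference in mean log2 fold change between genes with and without it, divided by the standard error of that difference, using odd-numbered chromosomes alone. It came first on the lower side. All chromosomes were measured in the same libraries, and the heptamer was known from earlier results of these data. Of the 15 largest lower genes, 14 had a 3′ UTR that could be searched. All 14 held the heptamer, with a following A in 11, while 0 of the 15 largest higher genes held it. Over all tested genes with a searchable 3′ UTR the share was 8.62%. Some of the 14, such as POLR1F and CAP1, lie on odd-numbered chromosomes and so were part of the ranking. Sites of some leading genes and the only match in the OGT message are shown 5′ to 3′ along the transcript, with the heptamer in capitals. CNOT11 and IFNAR1 each held 3 matches, and only the first of each is shown. Positions are from GENCODE release 29 on GRCh38, with the genomic strand given for each.
TNFRSF21, 3′ UTR, chr6:47232349-47232375, minus strand: ggattgtgagGCTCTTAacttcttaaa
POLR1F, 3′ UTR, chr7:19697762-19697788, minus strand: agtcttcacaGCTCTTAaaagccaggc
POLR1F, 3′ UTR, chr7:19695953-19695979, minus strand: agcagtttctGCTCTTAagggcttacc
SLC35B2, 3′ UTR, chr6:44254127-44254153, minus strand: gtaactttttGCTCTTAtaattttatt
CAP1, 3′ UTR, chr1:40071615-40071641, plus strand: ctacctttttGCTCTTAaaactgcttc
YWHAQ, 3′ UTR, chr2:9584817-9584843, minus strand: acttttccatGCTCTTAatgtattcct
CNOT11, 3′ UTR, chr2:101269885-101269911, plus strand: tatgcacacaGCTCTTAactcctcatg
IFNAR1, 3′ UTR, chr21:33355696-33355722, plus strand: atacgggcaaGCTCTTAactatttaaa
ELK3, 3′ UTR, chr12:96267414-96267440, plus strand: tatccttttaGCTCTTAagtgttgaac
OGT, coding sequence, chrX:71563364-71563390, plus strand: cagtaacacaGCTCTTAatatgcctgt

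The OGT transcript, of 5461 bases, held GCTCTTA 1 time, in its coding sequence and followed by A, and its reverse complement 0 times. The sources used here do not give the letters of siOGT1 and siOGT2, and whether this heptamer belongs to the target site or seed of either was not tested.

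The even-numbered chromosomes and X were not used for the ranking. There the median log2 fold change was -0.089 for the 448 genes with a match in the 3′ UTR, and 150 of them (33.5%) were called lower and 20 (4.46%) higher. The 4433 genes without a match had a median of -0.0009, and 240 of them (5.41%) were called lower and 393 (8.87%) higher. The mean of the genes with a match minus that of the genes without was -0.135. No test was made of this difference, since genes of the same libraries are not independent replicates. Genes with 2 or more matches (48) had a median of -0.114 against -0.087 for genes with 1 (400).

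The base after the heptamer and the place of the match went along with the size of the difference. The 170 genes with at least 1 match followed by A had a median of -0.159, and 80 (47.1%) were called lower. The 278 genes whose matches had another base there had a median of -0.059, and 70 (25.2%) were called lower. Genes with the heptamer in the coding sequence alone (244) had a median of -0.024, and 39 (16%) were called lower, against 4.8% of the 4189 genes with it in neither place. Matches are more frequent in long 3′ UTRs, so genes were also split by UTR length into 4 equal bins: 33.3%, 48.9%, 40% and 28.7% of the genes with a match were called lower, from the shortest to the longest bin (9, 45, 105 and 289 genes), against 6.39%, 4.75%, 5.09% and 5.43% of those without.

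**Figure D3:**
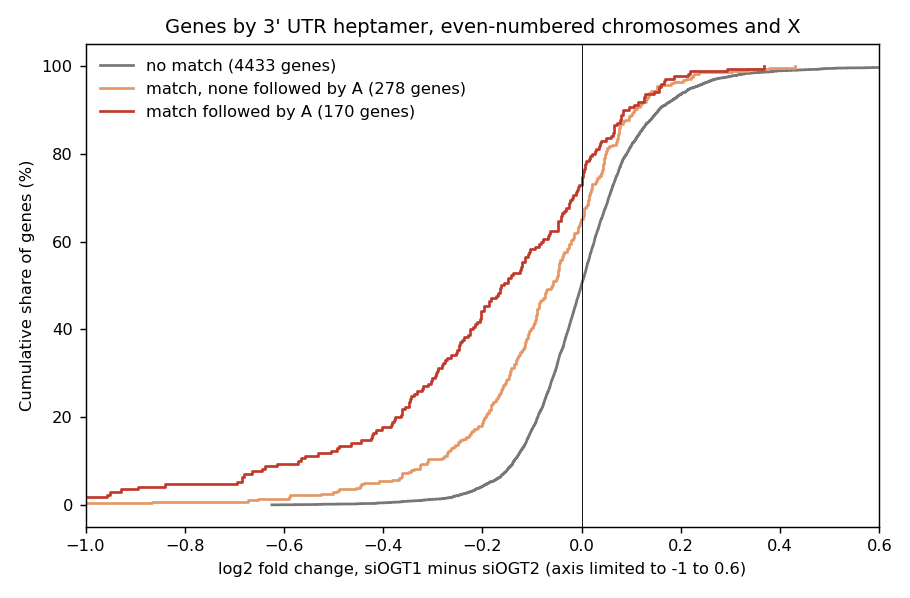
Cumulative share of genes, in percent, by log2 fold change of siOGT1 minus siOGT2, on even-numbered chromosomes and X; the lines stand for 4433 genes without the heptamer in the 3′ UTR, 278 with a match not followed by A and 170 with a match followed by A. The line of the last set lies furthest to the left, with a median of -0.159, and that of the genes without a match passes close to 0.

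Folds were again counted on log2(FPKM + 1). Of the genes called at least 1.5-fold lower in siOGT1 with a searchable 3′ UTR, 44 of 46 (95.7%) held the heptamer over all chromosomes. On the even-numbered chromosomes and X, 22 of 24 (91.7%) did. The 2 without it, named after their values were seen, were PLAU, the urokinase protease (6.71 and 6.32 FPKM in siOGT1 against 9.80 and 10.8 in siOGT2), and RIDA, an imine deaminase (8.60 and 8.64 FPKM in siOGT1 against 14.2 and 13.5 in siOGT2). Of the genes called at least 1.5-fold higher, 0 of 36 held it. Over all tested genes with a searchable 3′ UTR, 898 (8.62%) held it, and 35 of these 898 (3.9%) were called higher.

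Among all genes called lower, the median log2 fold change of the 300 with the heptamer was -0.25 in siOGT1 against siNC and 0.083 in siOGT2 against siNC. For the 555 without it the medians were -0.0044 and 0.20. For the 300 with the heptamer, siNC lay above both siRNA means for 85, between them for 178 and below both for 37. For the 555 without it, these counts were 41, 241 and 273.

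The heptamer first in rank on the higher side did not keep its sign. This heptamer, GCGAATT, was in the 3′ UTR of 60 genes on odd-numbered chromosomes, with a median log2 fold change of 0.027, and of 68 genes on the even-numbered chromosomes and X, with a median of -0.027.

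Several regulators were among the messages with the heptamer. SUZ12, a core subunit of Polycomb repressive complex 2, was listed at 25.1 and 25.5 FPKM in siNC, 12.3 and 13.1 in siOGT1 and 21.4 and 20.2 in siOGT2, a log2 fold change of -0.67 (SE 0.04, limma adjusted p = 2.18e-05). It was low in siOGT1 and slightly low in siOGT2, with no overlap. Of the 26 tested Polycomb genes, 3 were higher in siOGT1 (11.5%) and SUZ12 alone was lower (3.85%), against 8.35% and 8.24% of all genes. Among the 3 higher were MTF2 at 0.32 and PCGF5 at 0.15.

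CPT1A, the enzyme that commits long-chain fatty acids to mitochondrial oxidation, was listed at 23.49 and 22.97 FPKM in siNC, 14.2 and 13.6 in siOGT1 and 24.8 and 26.8 in siOGT2 (-0.85, SE 0.04, limma adjusted p = 4.89e-06). Of 18 tested genes of fatty acid oxidation, it and ACADM were lower in siOGT1 (11.1%) and 0 were higher, against 8.24% and 8.35% of all genes. ACADM, a dehydrogenase of the same pathway at -0.56, did not hold the heptamer. Of 16 genes of the RNA interference machinery, AGO2 (-0.21) and TNRC6C (-0.42), an Argonaute and its partner protein, were lower and held the heptamer. MOV10 (0.23) and TNRC6A (0.14) were higher. Each direction made up 12.5% of the list, against 8.24% lower and 8.35% higher of all genes. AGO2 was below siNC with both siRNAs, at -0.40 in siOGT1 and -0.19 in siOGT2.

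Of the 15 genes with the largest difference on the higher side, 10 were on the list of interferon-stimulated genes. Type I interferon signals through its receptor, JAK kinases and the transcription factor complex ISGF3, which binds promoter elements named ISRE and turns on antiviral genes. IFIT2, an antiviral RNA-binding protein, was listed at 236.7 and 217.3 FPKM in siNC, 105.9 and 83.7 in siOGT1 and 41.0 and 37.3 in siOGT2. The groups did not overlap, and siNC was highest and siOGT2 lowest. Mean FPKM was 2.42-fold higher in siOGT1 than in siOGT2 (log2 fold change 1.25, SE 0.09, limma adjusted p = 4.5e-05). RSAD2, the antiviral enzyme viperin, was listed at 294.6 and 269.4 FPKM in siNC, 122.7 and 100.6 in siOGT1 and 56.8 and 45.7 in siOGT2. The same order held, with a log2 fold change of 1.11 (SE 0.10, limma adjusted p = 0.000145).

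ISG15, a ubiquitin-like modifier, was listed at 858.3 and 752.3 FPKM in siNC, 455.8 and 423.0 in siOGT1 and 265.1 and 246.1 in siOGT2, a log2 fold change of 0.78. Of the other largest genes, OASL, RTP4, CMPK2, BATF2, IFIT3, TNFSF10, USP18, MX2 and PLAAT4 showed this order of siNC, siOGT1 and siOGT2, with differences between the siRNAs of 0.75 to 0.98. IFI27 was listed at 176.8 and 197.8 FPKM in siNC, 166.1 and 171.2 in siOGT1 and 90.5 and 97.7 in siOGT2. It thus stood low in siOGT2, and siOGT1 against siNC did not pass (limma adjusted p = 0.088).

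Over the whole list, 59 of the 63 tested interferon-stimulated genes (93.7%) were higher in siOGT1, 1 was lower (1.59%) and 3 were not called. Over all genes, 8.35% were higher and 8.24% lower. The siNC mean lay above both siRNA means in 63 of 63, and in 57% of all genes called higher. The median log2 fold change of the 63 was 0.48, against -0.0066 over all genes. The median was -0.58 in siOGT1 against siNC and -1.02 in siOGT2 against siNC, which share the siNC libraries. The 1 lower gene, named after its values were seen, was TRIM14, a mitochondrial adaptor of antiviral signalling, listed at 26.1 and 25.3 FPKM in siNC, 11.98 and 10.1 in siOGT1 and 13.9 and 13.1 in siOGT2. Its 3′ UTR held the heptamer, as did those of 4 other genes of the 63, none of them called lower. The list took 3.72% and 3.57% of all reads in siNC, 2.53% and 2.28% in siOGT1 and 1.71% and 1.61% in siOGT2.

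ISRE-like letters were counted in the promoters. The motif, GAAA, any 2 bases and GAAA again, was searched on both strands, with overlapping matches kept, in 300-base promoters, from 250 bases before to 50 after the start, of RefSeq genes on GRCh38.p14. It was in 32 of the 50 interferon-stimulated genes with a promoter in the table (64%), in 6 of 10 of the largest higher genes (60%) and in 0 of 14 of the largest lower genes. Among all promoters in the table, each counted separately, it was in 3.57%. Counted by gene, as the other shares here are, it was in 4.23% of tested genes with a promoter in the table. Of the genes called higher, 11% held it, against 3.56% of those called lower and 3.64% of those not called. The genes called higher include 59 of the interferon-stimulated genes, so the 11% and the 64% are not separate counts. A match describes letters and does not show binding. Examples from genes above are shown along the gene's strand, with the motif or its reverse complement in capitals.
RSAD2 promoter, chr2:6877623-6877650, plus strand: tgtttcaacTTTCAGTTTCacatgtgga
IFIT3 promoter, chr10:89332426-89332453, plus strand: cagattctgTTTCAGTTTCccctcaaga
ISG15 promoter, chr1:1013381-1013408, plus strand: cgggaaaggGAAACCGAAActgaagcca
TNFSF10 promoter, chr3:172523599-172523626, minus strand: aggagcttcTTTCAGTTTCcctcctttc

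Genes upstream of and beside the interferon response followed in part. Of 16 tested genes of nucleic acid sensing, 4 were higher in siOGT1 and 1, IFNAR1, was lower (25% and 6.25%). Over all genes these shares were 8.35% and 8.24%. Without siOGT1 replicate 1, 2 were higher. IFNB1, the interferon beta gene, was listed at 2.60 and 2.49 FPKM in siNC, 2.40 and 1.22 in siOGT1 and 0.526 and 0.854 in siOGT2, a log2 fold change of 0.71 (SE 0.17, limma adjusted p = 0.0199). The siOGT1 libraries were spread, replicate 1 near siNC and replicate 2 lower, and both lay above siOGT2. TLR3, a sensor of double-stranded RNA, was 0.46 higher and IFI16, a DNA sensor, 0.29 higher.

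Of 20 tested antigen presentation genes, 10 were higher in siOGT1 (50%) and 0 lower, against 8.35% and 8.24% of all genes. The list median was 0.17. TAP1, the peptide transporter, and HLA-F, a class I molecule, were 0.32 and 0.33 higher. Without siOGT2 replicate 2, 5 of the 20 were called higher. Of 17 tested genes of NF-kB signalling and inflammatory cytokines, 13 (76.5%) were higher and 0 lower, with a median of 0.28. CCL5, a chemokine, was listed at 2.71 and 2.75 FPKM in siNC, 1.56 and 1.53 in siOGT1 and 0.663 and 0.597 in siOGT2. TNFAIP3, an inhibitor of NF-kB signalling, was 0.39 higher in siOGT1, RELB, an NF-kB subunit, 0.32 higher and LIF, a cytokine, 0.30 higher.

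**Figure D4:**
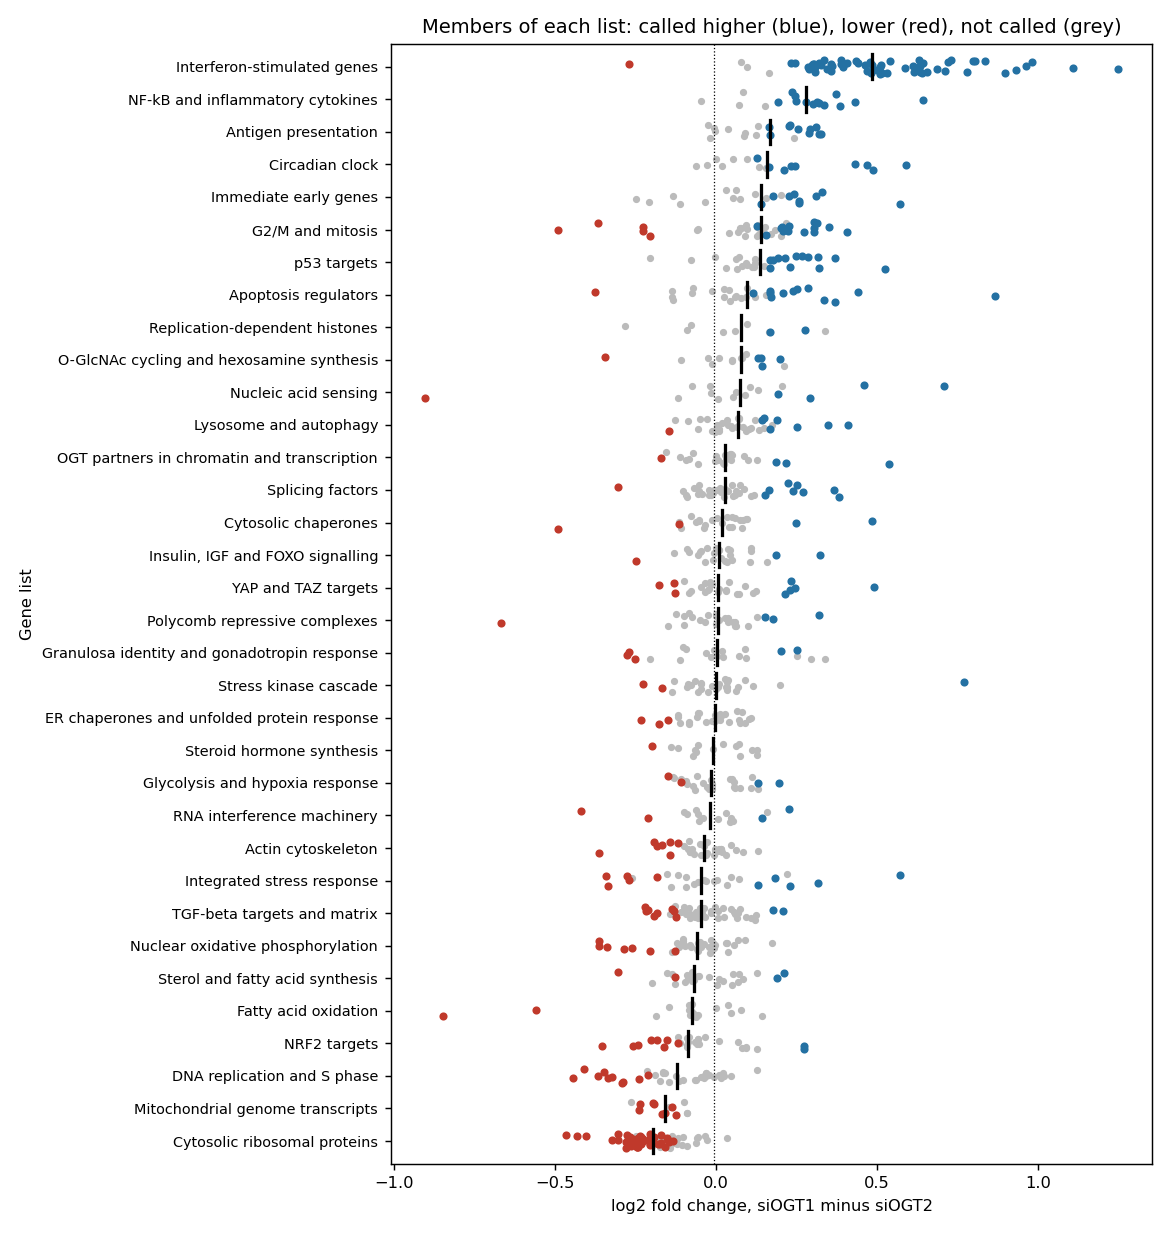
Log2 fold change of siOGT1 minus siOGT2 for each tested member of 34 gene lists, with members called higher in blue, called lower in red and not called in grey; black bars are list medians and the dotted line is the median of all tested genes, -0.0066. The interferon-stimulated genes lie furthest to the right with a median of 0.48, and the cytosolic ribosomal proteins furthest to the left with a median of -0.19.

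MAP2K4, a kinase that activates JNK and p38, was among the 15 largest and off the interferon list. It was listed at 13.8 and 14.0 FPKM in siNC, 14.5 and 14.7 in siOGT1 and 8.29 and 8.02 in siOGT2. Only siOGT2 was low, with no overlap, and the log2 fold change was 0.77 (SE 0.04, limma adjusted p = 4.48e-06). Of 29 tested genes of the stress kinase cascade, MAP2K4 alone was higher (3.45%), and MAPK9, a JNK, at -0.23 and MAP3K20 at -0.17 were lower (6.9%), both shares below those of all genes, 8.35% and 8.24%. SPANXA2 was also among the largest (0.77), but it has near-identical copies, so reads may have been split between them and its value is uncertain.

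Of 17 tested circadian genes, 9 were higher in siOGT1 (52.9%, against 8.35% of all genes), 0 were lower and 8 were not called, with a median of 0.16. PER1, a repressor of the clock, was listed at 9.67 and 10.5 FPKM in siNC, 8.15 and 8.62 in siOGT1 and 5.04 and 5.42 in siOGT2 (0.59, SE 0.06, limma adjusted p = 0.000133). NR1D1, the nuclear receptor REV-ERB alpha, was listed at 119.4 and 115.6 FPKM in siNC, 96.8 and 103.2 in siOGT1 and 72.4 and 71.6 in siOGT2. In both, siNC was highest and siOGT2 lowest with no overlap. CIART and BHLHE41, both repressors in the clock, were 0.49 and 0.43 higher in siOGT1, although the 3′ UTR of BHLHE41 held the heptamer.

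Immediate early genes respond within minutes to growth factors and stress. Of 21 tested, 9 were higher in siOGT1 (42.9%) and 0 lower, against 8.35% and 8.24% of all genes, with a median of 0.14. ATF3, a stress-induced transcription factor, was listed at 65.3 and 66.3 FPKM in siNC, 50.2 and 54.6 in siOGT1 and 35.5 and 34.3 in siOGT2 (0.57, SE 0.04, limma adjusted p = 4.29e-05). Its 3 groups were separate, in the order siNC, siOGT1, siOGT2. DUSP1, a phosphatase of MAP kinases, and KLF6 were 0.31 and 0.26 higher. The count for this list was 4 without siOGT1 replicate 2, and 5 without siOGT2 replicate 2.

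Of 28 tested p53 targets, 13 were higher in siOGT1 (46.4%) and 0 lower, against 8.35% and 8.24% of all genes. The list median was 0.14. BTG2, an antiproliferative factor, was listed at 72.9 and 70.6 FPKM in siNC, 76.2 and 82.2 in siOGT1 and 56.2 and 53.2 in siOGT2 (0.53, SE 0.04, limma adjusted p = 6.57e-05). Here siOGT2 was low and siOGT1 stood at or above siNC. BBC3, the pro-apoptotic protein PUMA, CCNG1 and SESN2 were 0.37, 0.32 and 0.32 higher. Of 30 apoptosis regulators, 12 were higher (40%) and 1 was lower (3.33%). TNFSF10, the death ligand TRAIL, was 0.87 higher and BIRC2, an inhibitor of apoptosis, 0.44 higher.

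Cell cycle genes were divided. Of 40 tested genes of G2 and mitosis, 15 were higher in siOGT1 (37.5%) and 5 lower (12.5%), against 8.35% and 8.24% of all genes. The list median was 0.14. KIF14, a mitotic kinesin, CENPA, the centromeric histone, and CCNA2, a cyclin, were 0.41, 0.35 and 0.31 higher. The 5 lower genes were TOP2A (topoisomerase II alpha), CDC25B, ANLN, TPX2 and SMC2, the last 4 named after their values were seen, and 4 of the 5 held the heptamer. TOP2A was listed at 28.4 and 29.3 FPKM in siNC, 17.0 and 17.5 in siOGT1 and 23.5 and 25.8 in siOGT2, a log2 fold change of -0.49 (SE 0.05, limma adjusted p = 0.000152). The count of higher genes was 6 without siOGT1 replicate 2, 8 without siOGT2 replicate 1 and 7 without siOGT2 replicate 2.

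Of 36 tested genes of DNA replication and S phase, 0 were higher and 10 (27.8%) lower in siOGT1, against 8.35% and 8.24% of all genes. The list median was -0.12, and 1 of the 10 held the heptamer. MCM6, a subunit of the replicative helicase, was listed at 4.75 and 4.63 FPKM in siNC, 4.27 and 4.37 in siOGT1 and 6.08 and 6.06 in siOGT2. It was raised in siOGT2 and near siNC in siOGT1. UHRF1, which maintains DNA methylation, and MCM4 were lower in siOGT1, with log2 fold changes of -0.44 and -0.37. Without siOGT2 replicate 2, 6 of the 36 were called lower.

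Messages of the cytosolic ribosome were the list with the lowest median. Of 67 tested, 0 were higher and 42 (62.7%) lower in siOGT1, against 8.35% and 8.24% of all genes. The list median was -0.19, and siNC lay below both siRNA means in 53 of the 67. It did so in 32 of the 42 called lower, against 36.7% of all genes called lower. The share over all tested genes was not counted. The heptamer was in 3 of the 42. RPL27 was listed at 104.3 and 99.7 FPKM in siNC, 76.1 and 81.0 in siOGT1 and 106.0 and 111.5 in siOGT2, so that siOGT1 was low. RPS3A was listed at 49.6 and 47.6 FPKM in siNC, 48.4 and 50.9 in siOGT1 and 64.7 and 67.3 in siOGT2, so that siOGT2 was high. Ribosomal protein genes have many processed pseudogene copies, so reads may have been shared with them. The count was 20 without siOGT2 replicate 2 and 27 without siOGT1 replicate 1.

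Transcripts of the mitochondrial genome moved the same way, with a median of -0.16. Of 13 tested, 8 (61.5%) were lower in siOGT1 and 0 higher, against 8.24% and 8.35% of all genes. MT-ND5, a subunit of complex I, was listed at 944.4 and 944.3 FPKM in siNC, 962.1 and 957.7 in siOGT1 and 1133 and 1130 in siOGT2 (-0.24, SE 0.03, limma adjusted p = 0.000605). The siOGT2 libraries stood apart above the other 4. These transcripts took 2.01% and 1.99% of reads in siNC, 2.07% and 2.09% in siOGT1 and 2.31% and 2.34% in siOGT2. Cytosolic ribosomal proteins took 1.42% and 1.36%, 1.39% and 1.47%, and 1.64% and 1.67%. The part of RNA quality or of cell state in these shares was not tested. The mitochondrial count was 4 without siOGT2 replicate 1, 1 without siOGT2 replicate 2 and 3 with quantile normalization.

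Of 38 tested nuclear genes of oxidative phosphorylation, 7 (18.4%) were lower in siOGT1 and 0 higher, against 8.24% and 8.35% of all genes. NDUFS1, of complex I, and ATP5F1B, of ATP synthase, were both at -0.36, and SDHC, of complex II, at -0.34. The heptamer was in 2 of the 7, NDUFS1 and SDHC. Of 30 NRF2 targets, which answer oxidative stress, 8 were lower (26.7%) and 2 higher (6.67%). ME1, malic enzyme, was at -0.26 and GCLM, a glutathione synthesis subunit, at -0.20, while MAFG, a partner of NRF2, was 0.27 higher. The heptamer was in 2 of the 8 lower NRF2 targets, ME1 among them. Without siOGT2 replicate 2, the counts of lower genes were 4 for the nuclear list and 2 for the NRF2 targets, and without siOGT1 replicate 1 and siOGT2 replicate 1 the NRF2 count was 4 and 5.

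Of 21 tested genes of granulosa identity and gonadotropin response, 2 were higher in siOGT1 (9.52%) and 3 lower (14.3%), against 8.35% and 8.24% of all genes, with a median of 0.0022. Without 1 siOGT library at a time the list gave 1 to 4 higher and 0 to 1 lower. KITLG, the KIT ligand that granulosa cells supply to oocytes, was listed at 20.9 and 20.3 FPKM in siNC, 19.65 and 20.05 in siOGT1 and 17.6 and 16.7 in siOGT2 (0.20, SE 0.04, limma adjusted p = 0.00778). GATA6 was 0.25 higher, and FZD1, a Wnt receptor, was among the lower genes, at -0.28. The heptamer was in 2 of the 3 lower genes, FZD1 among them. Of 15 genes of steroid hormone synthesis, SRD5A1, a 5-alpha reductase, was lower (-0.20) and 0 were higher. This was 6.67% of the list, below the 8.24% of all genes called lower. With all libraries kept, the count of lower genes was 0 with no filter on low values, a mean FPKM of at least 5, equal sums, a trimmed mean of log ratios or the replicate block. The call was also lost when a siOGT1 or a siOGT2 library was left out. The count was 2 with voom on recovered reads.

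Of 25 tested genes listed as partners of OGT, mainly in chromatin and transcription, 3 were higher (12%) and 1 was lower (4%). Over all genes the shares were 8.35% and 8.24%. Both counts were smaller when some siOGT libraries were left out. PPARGC1A, the coactivator PGC-1 alpha, was listed at 3.73 and 3.42 FPKM in siNC, 2.999 and 3.14 in siOGT1 and 1.88 and 1.73 in siOGT2 (0.54, SE 0.06, limma adjusted p = 0.00052). Against siNC, siOGT2 passed and siOGT1 did not. TET3, a DNA demethylase, was 0.22 higher and TRAK2, a mitochondrial trafficking adaptor with the heptamer, 0.19 higher, while the transcription factor SP1 was lower (-0.17).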

How the data were processed

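RNA of 6 libraries, 2 per group, was sequenced. The submitters' processing notes name cutadapt 1.15, HISAT2 (no version) and the build GRCh38. Counting program, annotation and strandedness: not given in the sources used here, so overlapping genes may share reads. The values deposited by the authors are FPKM. Whole reads (tolerance 0.01) were recovered from them for 100% of tested genes and used for depth and 1 alternative. Values were analysed as log2(FPKM + 1), which understates changes of low genes. One model with a mean per group over all 6 libraries was fitted (limma 3.58.1, R 4.3.3, eBayes with intensity trend, two-sided) and p-values were adjusted by Benjamini-Hochberg over 10547 genes, with calls at 0.05. On simulated counts for siOGT1 against siOGT2 (10547 genes), 64.2% of genes changed 1.25-fold, 92.5% of those changed 1.5-fold and 100% of those changed 2-fold were found, with 13 false calls, so smaller changes can be missed.

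Named genes are OGT, OGA, the 15 largest called differences each way with libraries on separate sides, up to 4 members of each list by smallest p, and the granulosa markers; others are marked. The groups, lists, heptamer and naming rule were chosen with earlier results of these data known. Symbols were found for all but 134 identifiers. The 3′ UTRs and coding sequences are from GENCODE release 29, 1 transcript per gene, and promoters from RefSeq. Alternatives covered pseudocount, filter, scaling, variance model, replicate block, recovered reads and leaving out each library.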

Additional observations from a re-analysis of the deposited data

How the results depend on the processing

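As reported, 1750 genes were called, 881 higher and 869 lower in siOGT1. With no filter on low values the counts were 1017, 524 and 493. Leaving out 1 library at a time gave 816 to 1533 called, 417 to 783 higher and 399 to 750 lower. The difference in mean log2 fold change between genes with and without the heptamer on the even-numbered chromosomes and X, -0.135, was -0.156 with a pseudocount of 0.1, -0.095 with a pseudocount of 5, -0.157 at a mean FPKM of at least 5, -0.159 with voom on recovered reads, and -0.139 to -0.131 with 1 library left out. The OGT difference passed with voom on recovered reads (-0.12) and ran from -0.16 to -0.06 with 1 library left out.

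Replicate numbers did not pair the samples: deviations of same-numbered libraries correlated at 0.049 for siOGT1 and siOGT2, -0.022 for siOGT1 and siNC and -0.026 for siOGT2 and siNC. With the replicate block, 1674 genes were called, 842 higher and 832 lower, the heptamer difference was -0.135 and the OGT difference -0.11. Of 152 named genes called, 108 were called in each of 17 alternative settings where they were tested and 0 changed sign. Of the 30 with the largest differences, 29 were, the exception being RTP4, with no filter (adjusted p = 0.0645).

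Of 17 list counts over 5 members, 13 moved by more than 1.5 times in some setting, as did 36 of 38 counts of 1 to 5 members. With no filter the counts were 20 for ribosomal, 1 for mitochondrial and 52 for interferon-stimulated genes, and with voom 53, 12 and 59.

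Depth, at 765 to 975 reads for the median gene, and 2 libraries per group limit what can be called. Sequences of the siRNAs, separate cultures and protein levels were not analysed here.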

Other observations

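Of 37 tested splicing factors, 8 were higher in siOGT1 (21.6%, against 8.35% of all genes) and 1 lower (2.7%, against 8.24%), with a median log2 fold change of 0.027 against -0.0066 over all genes. CLK1, a kinase of SR proteins, was listed at 36.6 and 36.5 FPKM in siNC, 36.3 and 36.4 in siOGT1 and 28.2 and 27.1 in siOGT2, so that siOGT2 alone was low. SRSF3 and TRA2A, both splicing regulators, were 0.37 and 0.27 higher, and HNRNPA1 was lower (-0.30). The 3′ UTR of SRSF3 held the heptamer GCTCTTA 2 times and that of HNRNPA1 held it 1 time. Without siOGT1 replicate 2 or siOGT2 replicate 2, 5 of the 37 were called higher.

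Of 39 tested lysosome and autophagy genes, 7 were higher in siOGT1 (17.9%) and 1 lower (2.56%), against 8.35% and 8.24% of all genes. MAP1LC3B, which marks autophagosomes, was listed at 72.7 and 73.3 FPKM in siNC, 72.1 and 74.7 in siOGT1 and 57.6 and 57.2 in siOGT2. WIPI1, another autophagy protein, was 0.41 higher. The count of higher genes was 4 without siOGT2 replicate 2. In both, siOGT2 was low and siOGT1 near siNC. Among chaperones, HSPB8 was 0.49 higher in siOGT1, and HSPD1, the mitochondrial chaperonin, was listed at 40.9 and 41.7 FPKM in siNC, 34.7 and 34.4 in siOGT1 and 49.2 and 48.8 in siOGT2, so that the siRNAs lay on opposite sides of the control.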
